A study of Zea mays with 6 samples.

Results

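Genes for the enzymes that split or make sucrose were examined in maize endosperm, the starch-storing tissue of the kernel, 20 days after pollination. Members were all genes whose description in the deposited tables named a sucrose synthase, a sucrose-phosphate synthase, an invertase or a fructofuranosidase, which took 59 of 39179 genes. By the same descriptions they fell into 18 sucrose synthases, 7 sucrose-phosphate synthases, 8 cell wall invertases, 2 vacuolar invertases, 10 neutral invertases, 6 invertases of no stated class and 8 invertase inhibitors. Of the 59 genes, 15 had no read in any library. A further 17 had too few reads for a test, which left 27.

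The wild type was the inbred B73, and the line compared with it was nacRNAi (Ni4), a transgenic RNA interference line, with 3 libraries per line. The labels do not give the promoter of the construct, the number of transformation events behind Ni4 or whether libraries came from separate ears or plants, so p-values rest on library spread that could be technical only. RNA interference lowers transcripts that match its construct. The targets were taken as 2 endosperm NAC transcription factors from knowledge of the study. NAC130 (Zm00001d008403) stood at 1336, 1335 and 1054 CPM in wild type, against 238, 227 and 222 CPM in nacRNAi. It was 5.42-fold lower (log2 fold change -2.44, SE 0.10, edgeR adjusted p = 4.22e-06). NAC128 (Zm00001d040189) stood at 309, 359 and 271 CPM against 248, 300 and 283 CPM, not called at -0.18 on the log2 scale (edgeR adjusted p = 0.245) and called higher under library totals (0.35, edgeR adjusted p = 0.0168).

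Sucrose made in the leaves reaches the kernel through the phloem and is split there by enzymes of 2 families. Sucrose synthase cleaves it reversibly with UDP into fructose and UDP-glucose, the sugar nucleotide from which endosperm makes starch precursors and cell wall polymers. Invertases hydrolyse it irreversibly into glucose and fructose. Cell wall invertases act outside the cell, vacuolar invertases in the acid vacuole, and neutral invertases in the cytosol, plastids or mitochondria. Invertase inhibitors are small proteins that bind the acid invertases, and proteins of the same family inhibit pectin methylesterases instead. Sucrose-phosphate synthase runs the other way, joining UDP-glucose and fructose-6-phosphate into the precursor of sucrose. In maize, shrunken1 encodes the main sucrose synthase of the starchy endosperm and miniature1 a cell wall invertase of the basal transfer layer, where sugars enter the kernel.

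Library totals ran from 55812999 to 69670876 counts. CPM, the depth-scaled count, was TMM-scaled here, which centres the ratio between lines on the typical gene. A total of 3 counts corresponded to 0.0361 to 0.0624 CPM. The lines differed across the transcriptome, with 47.3% of 22259 tested genes called at an edgeR adjusted p under 0.05. Under scaling by library totals the median gene was higher in nacRNAi by 0.52 log2, and on log2(FPKM + 1) by 0.38. FPKM, the deposited length-scaled unit, is used below to compare genes with each other, and differences between lines on that scale include this shift. Zein and ADP-glucose pyrophosphorylase genes, the starchy endosperm list, summed to 295050 to 334514 CPM in wild type and to 106982 to 120969 CPM in nacRNAi.

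The dominant sucrose synthase of the endosperm was 1.76-fold higher in nacRNAi, while a less abundant synthase was 1.90-fold lower. Genes of sucrose-phosphate synthase and cell wall invertase were called in 1 direction, higher, and neutral invertases in both. Of the 27 tested members, 14 (51.9%) changed. Higher in nacRNAi were 9 members (33.3%), beside 23.2% of all tested genes, and lower were 5 (18.5%), beside 24.0%. The change was at least 2-fold for 7 (25.9%), beside 17.6% of all tested genes. In 15 members (55.6%) the libraries of the lines did not overlap, beside 59.2% of all tested genes. The median log2 fold change of the tested members was -0.01. Scaled by library totals, 18 members were called higher and 2 lower, beside 50.5% and 9.0% of all tested genes, and their median was 0.50. On log2(FPKM + 1), 16 were higher and 2 lower by limma, beside 57.0% and 6.93%. All 9 members called higher with TMM were also called higher under each of the 10 other scalings, filters, tests and measures tried. Among these, library totals and both FPKM measures raise the median gene in nacRNAi, by 0.38 to 0.59 log2, so a higher call could hardly be lost there. The others place the median gene at -0.02 to 0.04, close to its place with TMM, so they do not test that scaling. Of the 5 called lower, Zm00001d004804 alone kept its call under each of the 10. With a library left out, Zm00001d016708 and Zm00001d015094 kept their call in 2 of 6 fits, and Zm00001d041991 in 5. In bulk tissue, fewer cells of a type and less RNA per cell cannot be told apart.

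**Figure D1:**
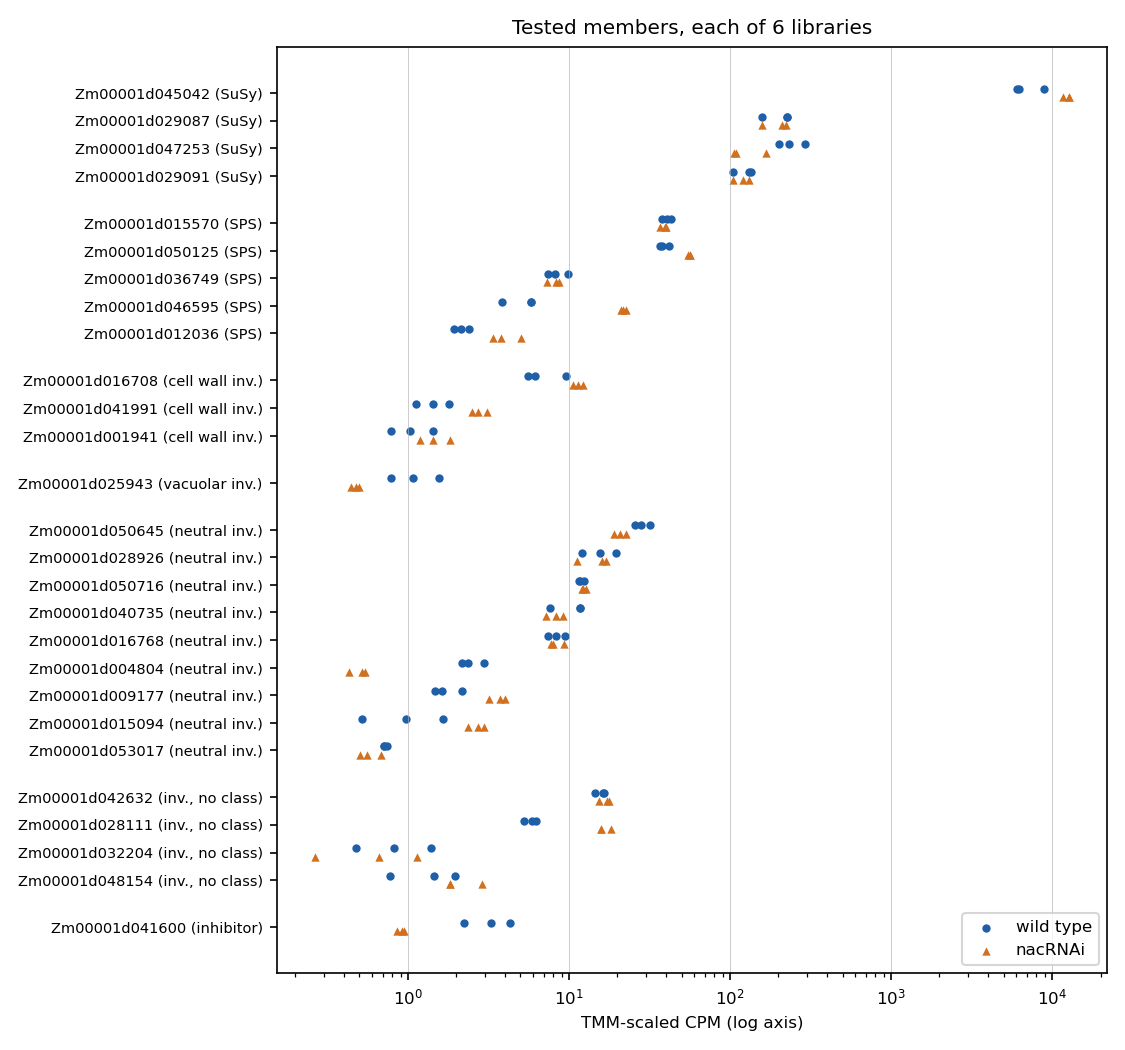
Level of each of the 27 tested members in the 6 libraries, in TMM-scaled CPM on a log axis, grouped by class and sorted by wild-type FPKM. Circles are wild type and triangles nacRNAi. Zm00001d045042 stands apart from every other member, at 6030 to 12792 CPM.

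Sucrose synthase 1 (Zm00001d045042, chromosome 9, 10906934 to 10912944, plus strand), known by this identifier as shrunken1, was the most abundant member in both lines. Its level was 6030, 8879 and 6269 CPM in the wild-type libraries, against 11705, 12792 and 12688 CPM in the nacRNAi libraries. All nacRNAi libraries lay above all wild-type libraries, and wild-type replicate 2 lay nearest to them. It rose 1.76-fold (log2 fold change 0.81, SE 0.15, edgeR adjusted p = 0.00356). Its change ran from 0.71 to 1.01 when each library was left out in turn. By its share of all counts, shrunken1 took 0.588% ± 0.113 in wild type (SD, n = 3), against 1.48% ± 0.0777 in nacRNAi (SD, n = 3). Ranked by count among all genes, it was the 18th to 21st in the wild-type libraries and the 5th to 7th in the nacRNAi libraries. Share and rank also depend on the other genes of a library, so the lower zein sum in nacRNAi raises both. Zein-beta (Zm00001d005793) held 2644434 to 3119908 counts in wild type, above shrunken1, against 93411 to 132557 in nacRNAi, below it. The coefficient of variation of shrunken1 was 22.4% across wild type and 4.84% across nacRNAi, beside medians over all tested genes of 13.1% and 10.9%.

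A second gene with almost the same description, sucrose synthase1 (Zm00001d047253, chromosome 9, 124178172 to 124184872, minus strand), moved in the opposite direction. It stood at 232, 203 and 293 CPM in wild type, against 168, 109 and 106 CPM in nacRNAi, with no overlap, and nacRNAi replicate 1 was the nearest to wild type. The fall was 1.90-fold (log2 fold change -0.93, SE 0.22, edgeR adjusted p = 0.0169). It did not pass under library totals (-0.42, edgeR adjusted p = 0.178), nor without nacRNAi replicate 2 (-0.83, edgeR adjusted p = 0.0584) or replicate 3 (-0.81, edgeR adjusted p = 0.0542). On log2(FPKM + 1) the difference was -0.80 (limma adjusted p = 0.0223).

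The remaining abundant synthases lie close together on chromosome 1, 21.2 kb apart on the minus strand. Sucrose synthase 3 (Zm00001d029087, 57457546 to 57464810) measured 227, 225 and 159 CPM in wild type, against 157, 212 and 222 CPM in nacRNAi (log2 fold change -0.05, SE 0.18, edgeR adjusted p = 0.851). Its neighbour sucrose synthase2 (Zm00001d029091, 57485976 to 57493258) measured 132, 135 and 104 CPM against 104, 121 and 131 CPM (-0.06, SE 0.12, edgeR adjusted p = 0.709). The lines overlapped for both. The lowest libraries were wild-type replicate 3 and nacRNAi replicate 1 for each gene. The count ratio of the first gene to the second was 1.64 ± 0.104 in wild type, against 1.65 ± 0.126 in nacRNAi (SD, n = 3 each). By FPKM the ratio was less steady in wild type, at 2.39, 2.10 and 3.12, against 2.28 ± 0.0374 in nacRNAi (SD, n = 3), with overlap. Under library totals both stood higher in nacRNAi, at 0.47 (edgeR adjusted p = 0.0432) and 0.46 (edgeR adjusted p = 0.00666), below the median gene's shift of 0.52.

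Shrunken1 took a larger share of the synthase total in every nacRNAi library than in any wild-type library. Its part of the summed sucrose synthase FPKM was 85.2%, 89.7% and 87.5% in wild type, against 94.8%, 94.8% and 95.0% in nacRNAi, a difference of 7.45 percentage points without overlap. The share of Zm00001d047253 went from 5.05% ± 1.49 to 1.33% ± 0.493, that of Zm00001d029087 from 5.34% ± 1.08 to 2.63% ± 0.296, and that of Zm00001d029091 from 2.17% ± 0.621 to 1.16% ± 0.145 (SD, n = 3 each). None of these shares overlapped between lines, and each exact two-sided permutation test gave p = 0.1, the smallest that 3 against 3 libraries allow. Shrunken1 FPKM was 15.6, 26.4 and 13.9 times that of Zm00001d047253 in the wild-type libraries, against 50.3, 83.6 and 99.2 times in the nacRNAi libraries. A share or ratio within a library does not depend on library scaling. Shares and levels per length do depend on how FPKM was made. In wild type 1 TMM-scaled CPM corresponded to 0.229 FPKM for shrunken1 and 0.475 FPKM for Zm00001d029087, against 0.306 and 0.536 FPKM in nacRNAi. The TMM factors were 0.806 to 0.872 in wild type and 1.18 to 1.21 in nacRNAi, which raises these values in nacRNAi for every gene alike. A rise from line to line is therefore expected from that scaling alone. Its size differed between the genes, and that difference bears on the shares. For Zm00001d047253 the values were 0.371 and 0.411 FPKM, and for Zm00001d029091 0.322 and 0.391 FPKM. Why the rises differed was not tested. The shares are less far apart by counts, without overlap there too. By counts the shrunken1 share went from 92.3% ± 1.54 to 96.5% ± 0.103, that of Zm00001d047253 from 3.32% ± 1.09 to 1.00% ± 0.327, that of Zm00001d029087 from 2.71% ± 0.626 to 1.53% ± 0.207 and that of Zm00001d029091 from 1.65% ± 0.299 to 0.923% ± 0.0692 (SD, n = 3 each).

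**Figure D2:**
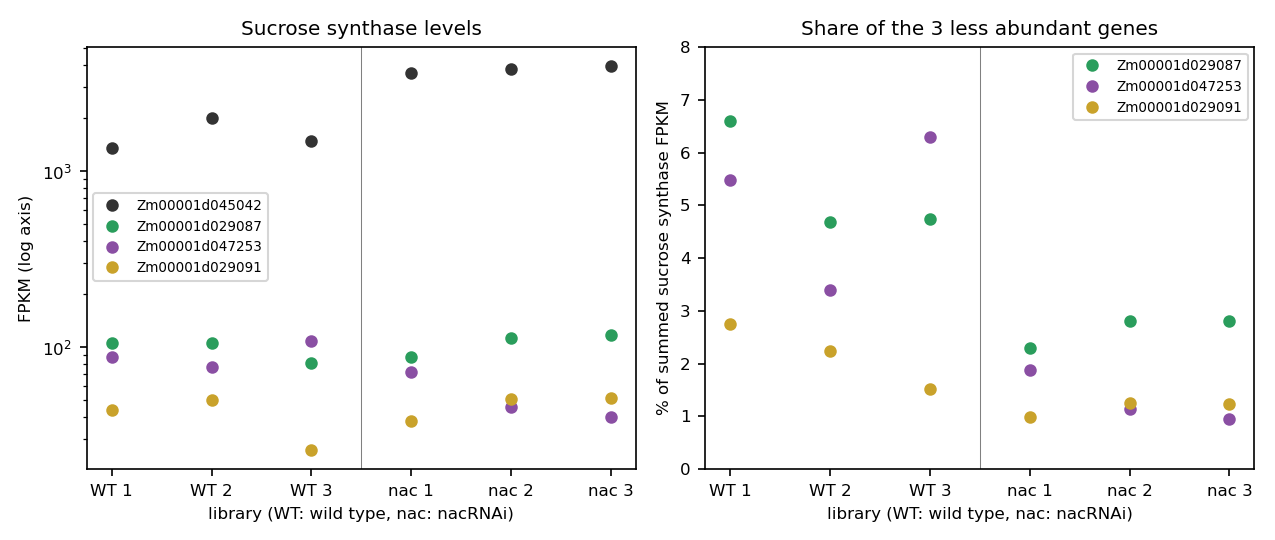
Left, FPKM of the 4 expressed sucrose synthase genes in each library on a log axis. Right, the share of the summed sucrose synthase FPKM taken by each of the 3 less abundant genes, in percent. Each point is 1 library, and every one of these shares is lower in all nacRNAi libraries than in all wild-type libraries.

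The other 14 gene models described as sucrose synthase were nearly silent. Together they collected 4, 1 and 1 counts in the wild-type libraries, against 5, 2 and 12 in the nacRNAi libraries, and 9 of them had none. Zm00001d010801 held 9 of the 12 counts in nacRNAi replicate 3. Of these models, 5 share the same span of 4816 bp on 4 chromosomes, with 2 counts in total, and 1 of those 5, Zm00001d035393, lies wholly over another model on the opposite strand. Reads that fit several near-identical copies could have been split or dropped by the authors' counting, so these values are uncertain.

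Sucrose-phosphate synthase genes rose or did not pass the test, and none fell, except Zm00001d015570 once a length trend was removed. Of 5 tested, 3 rose (60.0%) and none was called lower with TMM, beside 23.2% and 24.0% of all tested genes. The median log2 fold change of the 5 was 0.52. Under library totals all 5 were called higher, beside 50.5% of all tested genes. The clearest was Zm00001d046595 (chromosome 9, 97773604 to 97780433), at 5.79, 3.83 and 5.83 CPM in wild type, against 21.2, 21.6 and 22.5 CPM in nacRNAi. The lines were far apart and the nacRNAi libraries close together, and the rise was 4.22-fold (log2 fold change 2.08, SE 0.16, edgeR adjusted p = 5.27e-05). Its share of the summed sucrose-phosphate synthase FPKM went from 6.12% ± 1.22 to 17.6% ± 0.50 (SD, n = 3). By FPKM it stood below Zm00001d036749 in wild type and above it in nacRNAi.

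Zm00001d050125 (chromosome 4, 67726988 to 67745706) measured 38.0, 37.0 and 42.0 CPM in wild type, against 55.0, 56.6 and 56.5 CPM in nacRNAi. It rose 1.44-fold without overlap (log2 fold change 0.52, SE 0.07, edgeR adjusted p = 0.000519). With a trend on gene length removed its change was 0.28 (edgeR adjusted p = 0.00878). Another gene, Zm00001d012036 (chromosome 8, 166917606 to 166923260), was low, at 2.38, 1.94 and 2.14 CPM against 5.06, 3.38 and 3.76 CPM, and rose 1.89-fold (log2 fold change 0.92, SE 0.21, edgeR adjusted p = 0.00839).

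Sucrose-phosphate synthase 1 (Zm00001d015570, chromosome 5, 98828050 to 98835540), the most abundant gene of the class in wild type by FPKM, measured 38.0, 40.4 and 43.3 CPM against 39.5, 40.2 and 37.0 CPM. At -0.06 on the log2 scale (SE 0.07) it was not called (edgeR adjusted p = 0.528). It was called lower once the length trend was removed (-0.23, edgeR adjusted p = 0.0417) and higher under library totals (0.45, edgeR adjusted p = 0.00193). Its share of the class FPKM went from 50.9% ± 1.89 to 35.1% ± 1.33, and Zm00001d050125 stood at 37.3% ± 0.814 in nacRNAi (SD, n = 3). Zm00001d036749 (chromosome 6, 99749665 to 99760507) measured 9.85, 8.18 and 7.42 CPM in wild type, against 8.33, 7.35 and 8.71 CPM in nacRNAi, with overlap, and was not called (-0.06, SE 0.14, edgeR adjusted p = 0.740). The 2 untested genes were Zm00001d048979, with 2, 2 and 5 counts against 10, 11 and 12, and Zm00001d016399, with 1 count in all.

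Cell wall invertases were low throughout and 2 of the 3 tested genes rose (66.7%), beside 23.2% of all tested genes. Under library totals all 3 were called higher, beside 50.5% of all tested genes. Zm00001d016708 (chromosome 5, 173403817 to 173408283), described as a cell wall isozyme of beta-fructofuranosidase, measured 9.54, 6.14 and 5.57 CPM in wild type, against 10.6, 11.4 and 12.2 CPM in nacRNAi. Wild-type replicate 1 came close to the nacRNAi libraries without overlapping them. The rise was 1.61-fold (log2 fold change 0.68, SE 0.20, edgeR adjusted p = 0.0262), and it did not pass in 4 of the 6 fits that left out a library, where the log2 fold change was 0.59 without wild-type replicate 2, 0.54 without wild-type replicate 3, 0.69 without nacRNAi replicate 2 and 0.63 without nacRNAi replicate 3. It held 76.6% ± 5.45 of the class FPKM in wild type, against 77.8% ± 1.76 in nacRNAi (SD, n = 3).

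Zm00001d041991, described as CWINV3 (chromosome 3, 146847940 to 146851037), measured 1.79, 1.12 and 1.44 CPM against 2.51, 3.09 and 2.72 CPM, again without overlap. It rose 1.91-fold (log2 fold change 0.93, SE 0.24, edgeR adjusted p = 0.0141), and did not pass without nacRNAi replicate 2 (0.85, edgeR adjusted p = 0.0598). It overlaps a model on the opposite strand by 59 bp, and the strand setting of the counting is not given. Invertase cell wall4 (Zm00001d001941, chromosome 2) ran from 0.791 to 1.44 CPM in wild type, against 1.19 to 1.83 CPM in nacRNAi, and its log2 fold change of 0.45 did not pass (edgeR adjusted p = 0.289).

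The other 5 cell wall invertases were at or near 0. The gene described as insoluble isoenzyme 2 (Zm00001d003776) had 2, 0 and 0 counts in wild type, against 10, 1 and 0 in nacRNAi. Zm00001d001943, which lies 35.7 kb from invertase cell wall4, had 6 counts, all in nacRNAi replicate 1, and 3 genes had none. Markers of the basal transfer layer, where a cell wall invertase is prominent in younger kernels, also varied between libraries. The 6 marker genes of that layer summed to 14.2, 1.39 and 7.58 CPM in wild type, against 11.7, 1.02 and 0.641 CPM in nacRNAi, and the 4 tested were not called (edgeR adjusted p = 0.174 to 0.846). Embryo surrounding region2 had 90 counts in nacRNAi replicate 1, 3 in wild-type replicate 1 and none in the other 4 libraries. Their part in the cell wall invertase values was not tested.

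The vacuolar class was the least abundant. Acid beta-fructofuranosidase 3 (Zm00001d025943, chromosome 10, 134290813 to 134294851) measured 0.782, 1.56 and 1.07 CPM in wild type, against 0.494, 0.475 and 0.446 CPM in nacRNAi, and wild-type replicate 2 was the highest. It fell 2.40-fold (log2 fold change -1.26, SE 0.37, edgeR adjusted p = 0.0238). This fall did not pass under library totals (-0.74, edgeR adjusted p = 0.121), nor on log2(FPKM + 1) (-0.11, limma adjusted p = 0.233), nor without wild-type replicate 2 (-0.97, edgeR adjusted p = 0.0829) or any 1 of the nacRNAi libraries (-1.30 to -1.22). A second gene with the same description, Zm00001d054075, had 1, 0 and 5 counts in wild type, against 9, 9 and 13 in nacRNAi, and was not tested. Without the filter on low counts its log2 fold change was 1.75 (edgeR adjusted p = 0.277). Both genes described as beta-fructofuranosidase 1 carry a vacuole term in the deposited annotation. Zm00001d002830 had 8, 30 and 16 counts against 1, 7 and 7, and Zm00001d014947 had 5, 22 and 17 against 11, 4 and 2. Wild-type replicate 2 was the highest library for both.

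Neutral invertases were the second largest class, at 10 genes. Of 9 tested, 2 rose (22.2%) and 2 fell (22.2%), shares near the 23.2% and 24.0% of all tested genes, and the median log2 fold change of the 9 was -0.10. Under library totals 4 were higher and 1 lower, beside 50.5% and 9.0% of all tested genes. The most abundant was the chloroplastic form E (Zm00001d050645, chromosome 4, 109286090 to 109296510), at 32.0, 28.1 and 25.6 CPM in wild type, against 19.1, 20.8 and 22.5 CPM in nacRNAi. It fell 1.37-fold without overlap (log2 fold change -0.46, SE 0.10, edgeR adjusted p = 0.00807), but the sign turned with library totals as the scale (0.06, edgeR adjusted p = 0.650) and with FPKM as the measure (0.21 on log2(FPKM + 1), limma adjusted p = 0.0936). Its share of the neutral invertase FPKM, which needs no scaling between libraries, went from 32.9% ± 1.83 to 26.7% ± 0.856 (SD, n = 3).

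Of the 5 tested genes described as CINV2, a cytosolic form, 1 fell and another rose. Zm00001d004804 (chromosome 2, 140341974 to 140345724) measured 2.37, 2.96 and 2.16 CPM in wild type, against 0.542, 0.433 and 0.516 CPM in nacRNAi. It fell 4.99-fold (log2 fold change -2.32, SE 0.27, edgeR adjusted p = 0.000300), by the largest fold change among the tested members, and kept its call under every alternative tried. Zm00001d015094 (chromosome 5, 75259001 to 75273721) measured 0.522, 0.978 and 1.64 CPM against 2.71, 2.38 and 2.97 CPM. It rose 2.57-fold (log2 fold change 1.36, SE 0.39, edgeR adjusted p = 0.0223), and did not pass without wild-type replicate 2 (1.31) or without nacRNAi replicate 1 (1.35), 2 (1.44) or 3 (1.28). The ratio of the second gene's FPKM to the first's was 0.176, 0.268 and 0.639 in the wild-type libraries, against 4.42, 4.97 and 4.65 in the nacRNAi libraries. The order of the pair was thus opposite in the lines, in all 6 libraries. This restates the opposite calls of the 2 genes and adds no test.

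A mitochondrial form A, Zm00001d009177 (chromosome 8, 41086584 to 41090905), measured 1.47, 1.62 and 2.18 CPM in wild type, against 3.72, 3.20 and 3.99 CPM in nacRNAi, and rose 2.07-fold without overlap (log2 fold change 1.05, SE 0.22, edgeR adjusted p = 0.00528). Other mitochondrial forms were more abundant and did not pass. Zm00001d028926 (chromosome 1) measured 19.6, 15.7 and 12.0 CPM in wild type, against 11.2, 16 and 17.0 CPM in nacRNAi (log2 fold change -0.10, SE 0.22, edgeR adjusted p = 0.737). Zm00001d040735 (chromosome 3) measured 11.8, 11.6 and 7.62 CPM against 8.25, 9.17 and 7.22 CPM (-0.33, SE 0.18, edgeR adjusted p = 0.174), and was called lower without wild-type replicate 3 (-0.51, edgeR adjusted p = 0.0218).

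The remaining CINV2 genes overlapped or lay close between the lines. Zm00001d050716 (chromosome 4) measured 11.7, 12.4 and 11.6 CPM in wild type, against 12.3, 12.1 and 12.8 CPM in nacRNAi (log2 fold change 0.06, SE 0.09, edgeR adjusted p = 0.623). Zm00001d016768 (chromosome 5) measured 7.43, 9.51 and 8.32 CPM against 9.25, 8.01 and 7.75 CPM (-0.01, SE 0.13, edgeR adjusted p = 0.943). Zm00001d053017, the lowest tested neutral invertase in wild type by FPKM, gave -0.30 (edgeR adjusted p = 0.493) at 0.718 ± 0.0184 and 0.583 ± 0.0909 CPM (SD, n = 3). The untested gene Zm00001d051666 had 2, 0 and 4 counts against 0, 3 and 8.

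Among the invertases of no stated class, 4 are described as arabinanase/levansucrase/invertase. That description names a fold shared by enzymes with several substrates, so it does not show that the proteins cleave sucrose. Zm00001d028111 (chromosome 1, 23118720 to 23122921) measured 5.27, 5.91 and 6.23 CPM in wild type, against 18.2, 15.7 and 15.8 CPM in nacRNAi. It rose 2.85-fold without overlap (log2 fold change 1.51, SE 0.11, edgeR adjusted p = 4.12e-05), and the log2 fold change ran from 1.44 to 1.57 when each library was left out. Zm00001d042632 (chromosome 3) measured 16.2, 16.4 and 14.5 CPM in wild type, against 15.4, 17.3 and 17.8 CPM in nacRNAi (log2 fold change 0.10, SE 0.10, edgeR adjusted p = 0.408). These 2 genes stood at 1.59 and 4.01 FPKM in wild type and at 6.74 and 6.80 FPKM in nacRNAi. Zm00001d048154 (0.64, edgeR adjusted p = 0.200) and Zm00001d032204 (-0.38, edgeR adjusted p = 0.634) did not pass, at means of 2.18 CPM or less in either line.

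Only 1 of the 8 genes described as invertase inhibitors, or as inhibitors of invertase or pectin methylesterase, had enough reads for a test. Zm00001d041600 (chromosome 3, 129353827 to 129354513) measured 3.30, 4.33 and 2.24 CPM in wild type, against 0.952, 0.922 and 0.850 CPM in nacRNAi. The fall was 3.61-fold without overlap (log2 fold change -1.85, SE 0.28, edgeR adjusted p = 0.00119). On the deposited FPKM it went from 4.99 ± 1.09 to 3.55 ± 0.319 (SD, n = 3), and the difference on log2(FPKM + 1) was -0.38 (limma adjusted p = 0.0579). The gene spans 687 bp, among the shortest of the members. The other 7 inhibitors had at most 12 counts in a library, and 3 had none.

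**Figure D3:**
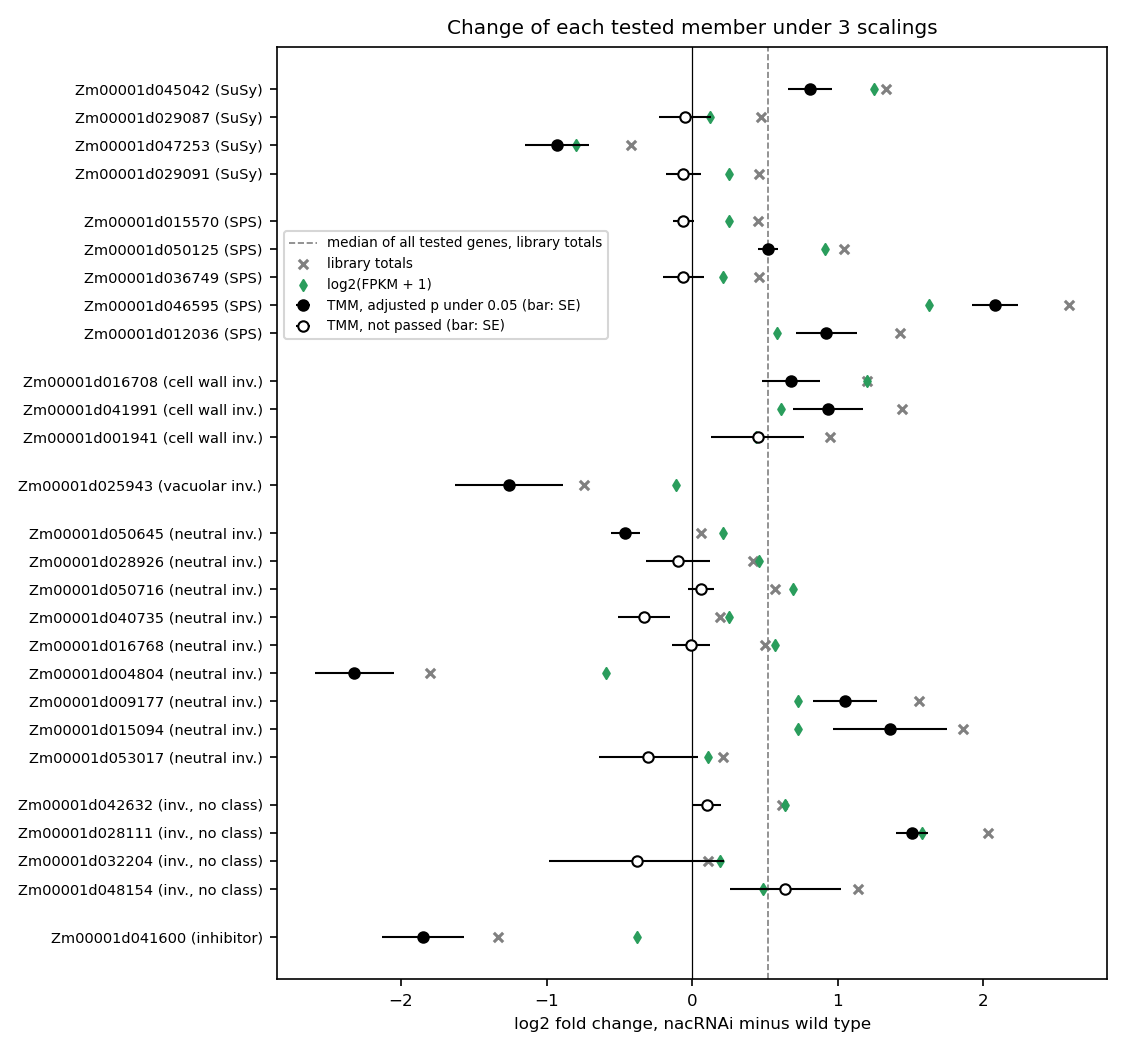
Log2 fold change (nacRNAi minus wild type) of each tested member. Circles with SE bars are the edgeR values with TMM scaling, filled where the adjusted p was under 0.05, crosses use library totals, and diamonds are differences on log2(FPKM + 1). The dashed line marks the median of all tested genes under library totals, 0.52.

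Summed by class, sucrose synthase outweighed every invertase class in both lines. Summed sucrose synthase FPKM was 1844 ± 345 in wild type, against 3997 ± 163 in nacRNAi, while all invertases other than the arabinanase/levansucrase/invertase genes summed to 22.1 ± 1.16 and 35.8 ± 2.39 FPKM (SD, n = 3 each). The ratio of the first to the second was 68.3, 101 and 81.0 in the wild-type libraries, against 112, 116 and 108 in the nacRNAi libraries, without overlap (exact two-sided permutation p = 0.1). Cell wall invertases summed to 9.63 ± 2.40 CPM in wild type, against 15.7 ± 0.611 CPM in nacRNAi, and neutral invertases to 81.1 ± 8.16 and 71.9 ± 4.0 CPM (SD, n = 3 each). The neutral invertase sums overlapped between the lines (exact two-sided permutation p = 0.3), and on FPKM they turned the other way, 18 ± 0.910 against 26.1 ± 1.76. The FPKM ratio of cell wall to neutral invertases was 0.216, 0.143 and 0.182 in wild type, against 0.341, 0.344 and 0.343 in nacRNAi (exact two-sided permutation p = 0.1). Sucrose-phosphate synthases summed to 95.4 ± 4.86 CPM and 129 ± 0.331 CPM (SD, n = 3), without overlap. The FPKM ratio of sucrose synthases to sucrose-phosphate synthases was 107 ± 24.7 in wild type, against 132 ± 5.24 in nacRNAi (SD, n = 3), with overlap (exact two-sided permutation p = 0.4).

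**Figure D4:**
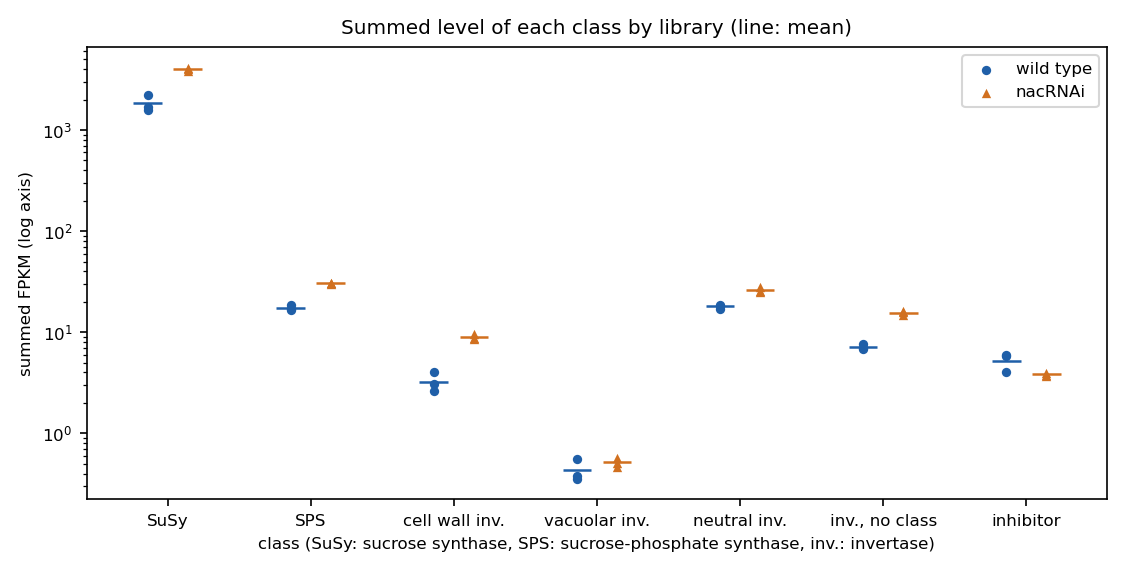
Summed FPKM of each class in each library on a log axis. Points are libraries and the short lines are the means of 3. Sucrose synthase sums lie at 1591 to 4148 FPKM, and the cell wall invertase sums at 2.61 to 9.65 FPKM.

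The enzymes that take up the products of sucrose cleavage were read from the same fit, together with sucrose-phosphatases, which act in sucrose synthesis. These were 45 genes found by description, of which 35 were tested. Of these 14 rose (40.0%) and 9 fell (25.7%), beside 23.2% and 24.0% of all tested genes. Under library totals 21 were called higher and 5 lower, beside 50.5% and 9.0%. The pattern for fructokinase also took 15 genes described as 6-phosphofructokinase, and without those 11 rose and 8 fell of 26 tested. UDP-glucose pyrophosphorylase2 (Zm00001d021421), which turns UDP-glucose into glucose-1-phosphate, measured 523, 512 and 535 CPM in wild type, against 1307, 1304 and 1292 CPM in nacRNAi. It rose 2.49-fold (log2 fold change 1.31, SE 0.06, edgeR adjusted p = 4.65e-06), and its FPKM was 11% ± 2.09 of that of shrunken1 in wild type, against 11.6% ± 0.499 in nacRNAi (SD, n = 3). The 3 other genes of that enzyme did not pass. All 5 phosphoglucomutase genes rose, beside 23.2% of all tested genes. Phosphoglucomutase1 (Zm00001d033746) changed by 0.60, Zm00001d044211 by 1.83 and Zm00001d036664 by 1.40 on the log2 scale. Counts and FPKM were far apart for Zm00001d036664, at means of 1.57 and 4.15 CPM but 0.0300 and 0.233 FPKM, so its level is uncertain. The rise of Zm00001d036666 passed narrowly and with overlap between the lines (1.08, edgeR adjusted p = 0.0439). With a trend on gene length removed, it did not pass (0.83, edgeR adjusted p = 0.105), nor did phosphoglucomutase2 (Zm00001d013428, 0.09, edgeR adjusted p = 0.334). Both tested glucose-6-phosphate isomerases rose, by 0.48 (Zm00001d020771) and 0.39 (Zm00001d005925).

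Among hexokinases, which phosphorylate the glucose that invertases release, the most abundant wild-type gene fell and a minor one rose. Hexokinase1 (Zm00001d039512) measured 395, 473 and 353 CPM in wild type, against 136, 129 and 130 CPM in nacRNAi, a 3.09-fold fall (log2 fold change -1.63, SE 0.11, edgeR adjusted p = 2.45e-05). Hexokinase7 (Zm00001d037689) measured 9.46, 10.9 and 6.66 CPM against 99.7, 88.5 and 73.6 CPM, a 9.68-fold rise (log2 fold change 3.28, SE 0.21, edgeR adjusted p = 6.65e-05). Neither overlapped between the lines. Hexokinase1 went from 67.7% ± 4.0 to 35.9% ± 2.54 of the summed hexokinase FPKM and hexokinase7 from 1.95% ± 0.159 to 32.8% ± 3.33 (SD, n = 3 each). The sum itself overlapped, at 171 ± 24.9 and 151 ± 8.60 FPKM (SD, n = 3, exact two-sided permutation p = 0.2). Of 8 tested hexokinases 2 rose and 4 fell, turned to 4 and 2 under library totals.

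Fructokinases phosphorylate the fructose that both families release. Of 4 tested, 1 rose and 2 fell, and under library totals 2 were called higher and 2 lower. Fructokinase1 (Zm00001d042536) measured 74.6, 84.3 and 71.6 CPM in wild type, against 20.9, 25.2 and 29.5 CPM in nacRNAi, a log2 fold change of -1.61 (SE 0.13, edgeR adjusted p = 8.31e-05). The gene described as Fructokinase-1 (Zm00001d012173) measured 17.5, 27.0 and 18 CPM against 0.759, 0.964 and 1.76 CPM, an 18-fold fall (log2 fold change -4.17, SE 0.36, edgeR adjusted p = 0.000223). Fructokinase-2 (Zm00001d035037) could not be read, since it had at most 7 counts in a library while its mean deposited FPKM over the libraries was 61.6, and it overlaps a neighbour on the same strand by 2552 bp. Sucrose-phosphatases complete the synthesis of sucrose, and 2 of the 3 tested fell. Sucrose-phosphatase 2 (Zm00001d024821) changed by -3.21 (edgeR adjusted p = 8.31e-05), and Sucrose-phosphatase 1 (Zm00001d010523), the most abundant in nacRNAi, by -0.45 (edgeR adjusted p = 0.00358), with its sign turned under library totals (0.06). Among 9 tested 6-phosphofructokinases 3 rose and 1 fell. Zm00001d038775 changed by 1.95 and Zm00001d043563 by 1.03 on the log2 scale, while Zm00001d005756, the most abundant by count in wild type, did not pass (0.23, edgeR adjusted p = 0.0680).

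**Figure D5:**
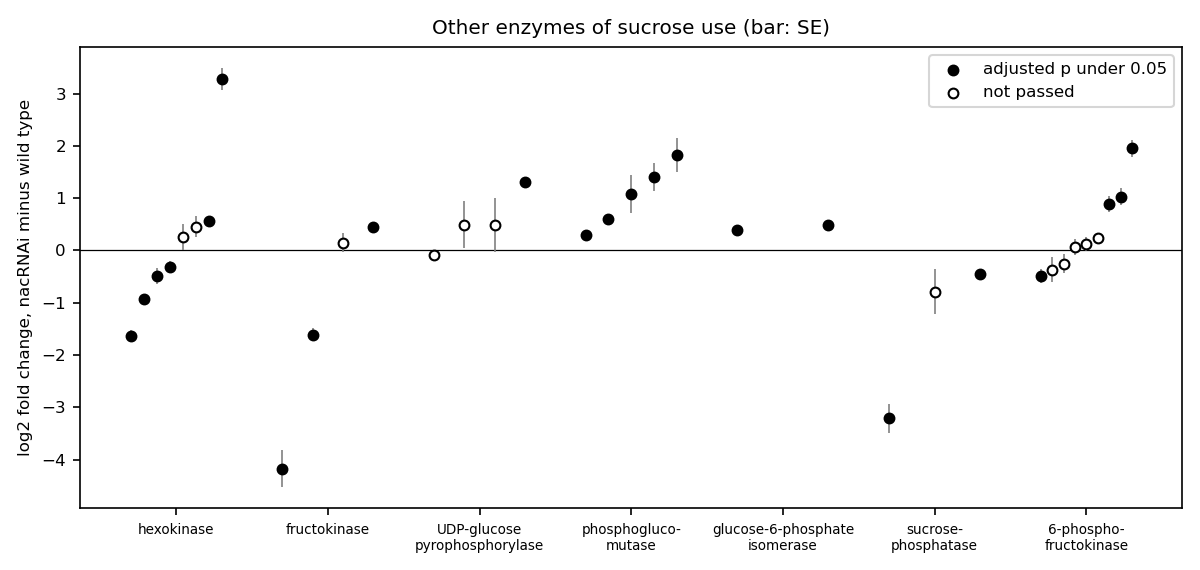
Log2 fold change (nacRNAi minus wild type, TMM scaling) of each tested gene of the other enzymes of sucrose use and of sucrose-phosphatases. Genes are grouped by enzyme and sorted within it, with SE bars. Filled points passed at an edgeR adjusted p under 0.05. All 5 phosphoglucomutase genes lie above 0, and hexokinases run from -1.63 to 3.28.

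Markers of other kernel parts were read beside these values. Of all tested genes 23.2% were called higher and 24.0% lower, and 50.5% and 9.0% under library totals. Embryo and oil body genes summed to 1540 to 1619 CPM in wild type and to 1004 to 1296 CPM in nacRNAi, with 8 of the 10 lower and 1 higher (5 lower and 2 higher under library totals). Genes with aleurone in their description summed to 118 to 136 CPM and to 102 to 109 CPM, with 2 of the 3 tested lower, where library totals gave all 3 as higher. Supernumerary aleurone1 (Zm00001d046599) made up most of it, at 87.4 to 107 CPM and 75.5 to 81.4 CPM. Its annotation names vacuolar transport, so this sum need not follow aleurone content. Chlorophyll a-b binding genes, taken as a sign of green tissue, summed to 35.5 to 43.2 CPM and to 34.7 to 41.2 CPM, with 1 of the 6 tested higher and 2 lower (3 higher and 2 lower under library totals). Most of that sum was Zm00001d015095, at 30.8 to 40.4 CPM and 31.0 to 35.0 CPM, which was not called (edgeR adjusted p = 0.461). Zm00001d015385 was higher, at 0.149 to 0.226 CPM against 2.43 to 4.65 CPM, and Zm00001d021784 lower, at 1.42 to 3.37 CPM against 0.112 to 0.301 CPM. Zm00001d032197, the other lower gene, stood at 0.224 to 0.333 CPM against no count in nacRNAi. Of the 19 tested starchy endosperm genes 17 were lower (14 lower and 1 higher under library totals). The part of these differences in the sucrose gene values was not tested.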

How the data were processed

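Per the file headers, the authors deposited unnormalized read counts in 1 table and FPKM (scaled by length and depth) in another, with a column for each of the 6 libraries. FPKM did not come from these counts alone: 253 to 280 genes per library held no count but a positive FPKM. The reverse was seen for 2 zein genes. Zm00001d035760 held 4250404 and 3881925 counts in wild-type replicates 1 and 2 at an FPKM of 0, against 99367 FPKM in replicate 3. Zm00001d019155 held 957988 to 1353318 counts at an FPKM of 0 in all 6 libraries. Class sums and shares by FPKM rest on this unit. Aligner, counter, strand setting, genome build and annotation: not given in the sources used here. Coordinates are therefore those of the files, build unnamed. Per the labels' protocols, the library kit was Truseq mRNA. No column of another sample was present (0 columns). Libraries of a line differed by more than counting noise (chi-square over its degrees of freedom 24.4 to 47.0).

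Lines and replicate numbers came from the sample titles. Counts were filtered with filterByExpr, scaled by TMM and tested over all 6 libraries by edgeR's quasi-likelihood F-test (version 4.0.16, R 4.3.3), with line as the only term. P-values were adjusted by Benjamini-Hochberg over all 22259 genes, with 0.05 as the threshold. SEs are approximate, taken from the log2 fold change and the F statistic of edgeR. The script was tested on simulated data. Sums, shares and ratios were compared by exact two-sided permutation tests, which cannot go below 0.1 here. Limits set by counts cover counting error only.

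Members, classes and lists were chosen with earlier results of these data known. Every tested member is named, those at 5 CPM or more in the higher line or called are given library by library, and per other enzyme the most abundant tested gene and the 2 called genes with the largest change are named. Other genes named were chosen after their values were seen. Alternatives were library totals, DESeq2 size factors, TMM without zein genes, no filter, at least 1 CPM in 3 libraries, the DESeq2 1.42.0 Wald test, limma 3.58.1 on log2(FPKM + 1) or log2(FPKM + 0.1), a block for replicate number, stricter thresholds (adjusted p under 0.01, at least 2-fold) and leaving out each library. Removal of a loess trend (span 0.3) on gene length was added after seeing the data.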

Additional observations from a re-analysis of the deposited data

How the results depend on the processing

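Scaling set most of the dependence. Members called higher and lower numbered 9 and 5 with TMM, 18 and 2 under library totals, 16 and 2 on log2(FPKM + 1) and 16 and 2 on log2(FPKM + 0.1), 4 and 3 with a 2-fold minimum, and 6 and 3 at an adjusted p under 0.01. Leaving out a library gave 6 to 9 higher and 3 to 7 lower. DESeq2 size factors, TMM without zein genes and the DESeq2 Wald test changed no member's call or sign. Over all genes 5171 were called higher and 5348 lower, against 11233 and 2004 under library totals, 12679 and 1542 on log2(FPKM + 1), 12700 and 1545 on log2(FPKM + 0.1), 1937 and 1989 with a 2-fold minimum, and 3296 and 3696 at an adjusted p under 0.01. Without 1 library the ranges were 4076 to 4792 higher and 4449 to 4922 lower. Of the other enzymes 14 rose and 9 fell, against 21 and 5 under library totals, 20 and 5 on both FPKM scales, 7 and 4 with a 2-fold minimum, 13 and 6 at an adjusted p under 0.01, and 13 to 14 rose and 6 to 9 fell without 1 library.

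Log2 ratios of the summed CPM, nacRNAi over wild type, moved with the measure. In the order TMM, summed FPKM, library totals and the range without 1 library they were 0.71, 1.46, 1.22 and 0.59 to 0.93 for cell wall invertases, -1.82, -0.45, -1.30 and -1.98 to -1.65 for inhibitors, 0.57, 1.13, 1.09 and 0.56 to 0.59 for invertases of no class, 0.75, 1.12, 1.27 and 0.66 to 0.93 for sucrose synthases, and 0.44, 0.81, 0.95 and 0.41 to 0.48 for sucrose-phosphate synthases. For neutral invertases the ratio of -0.17 turned to 0.54 on FPKM and 0.35 under library totals (-0.25 to -0.11 without 1 library). For vacuolar invertases -0.95 turned to 0.26 on FPKM and was -0.43 under library totals (-1.16 to -0.69). The differences in synthase share, in percentage points of FPKM, of counts and over the range without 1 library, were 7.45, 4.23 and 6.32 to 8.57 for Zm00001d045042, -3.73, -2.31 and -4.55 to -3.11 for Zm00001d047253, and -2.71, -1.19 and -3.03 to -2.08 for Zm00001d029087.

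Signs of small changes turned under library totals, on log2(FPKM + 1) and on log2(FPKM + 0.1), in that order, for Zm00001d032204 (0.11, 0.19, 0.43), Zm00001d050645 (0.06, 0.21, 0.23), Zm00001d028926 (0.42, 0.46, 0.56), Zm00001d040735 (0.19, 0.25, 0.34), Zm00001d016768 (0.50, 0.57, 0.76), Zm00001d053017 (0.21, 0.11, 0.39), Zm00001d029087 (0.47, 0.12, 0.12), Zm00001d029091 (0.46, 0.25, 0.26), Zm00001d015570 (0.45, 0.25, 0.27), Zm00001d036749 (0.46, 0.21, 0.31) and Zm00001d010523 (0.06, 0.27, 0.29). With the length trend removed Zm00001d029087 stood at 0.04 and Zm00001d050716 at -0.06, and without a filter Zm00001d016768 stood at 0.00. Without 1 library the range crossed 0 for Zm00001d032204 (-0.96 to 0.09, also 0.01), Zm00001d028926 (-0.26 to 0.09, also 0.07), Zm00001d016768 (-0.09 to 0.08, also 0.04 and 0.02), Zm00001d029087 (-0.20 to 0.09, also 0.04 and 0.03), Zm00001d029091 (-0.17 to 0.03, also 0.00) and Zm00001d036749 (-0.15 to 0.06, also 0.01). The cause of these shifts was not tested.

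The replicate number did not pair the libraries, as deviations of same-numbered libraries correlated at -0.039, -0.039 and -0.104. With the replicate block 9 members were called higher and 4 lower, Zm00001d025943 no longer passing (-1.21, edgeR adjusted p = 0.0613), and 14 and 9 of the other enzymes.

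The TMM scale places the median gene at no change, and these counts cannot show which scale reflects RNA per kernel.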
